A study of Mus musculus with 24 samples.

Results

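Brain of wild-type mice was set against 3 other tissues of the same genotype, with 3 libraries from each: the inguinal fat pad (IAT), brown fat from the back (BAT) and liver. These 12 libraries were taken from 24 in the series, of which the other 12 come from the same 4 tissues of mice lacking Prxl2a. A gene was called brain-high when brain exceeded each of the 3 other tissues in the test and all 3 brain libraries lay above all 9 others, and brain-low by the same rule downwards. Of 15810 genes tested, out of 19015 in the table, 4516 (28.6%) were brain-high and 3746 (23.7%) were brain-low, 8262 (52.3%) together. All mice were female and 12 weeks old, on a normal diet. Their blood was washed out with PBS before the tissues were cut out and frozen. Neither the strain nor the part of the brain taken is stated. Because the study describes 3 mice per genotype, 1 mouse may have given all 4 tissues. P-values rest on the spread between the 3 libraries within each tissue, with 1 dispersion estimate per gene shared by all 4 tissues. They do not measure the spread in brain alone.

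Neurons signal by releasing transmitter from synaptic vesicles onto receptors of the next cell, and rely on ion channels to carry the impulse. Astrocytes clear transmitter and supply substrates, oligodendrocytes wrap axons in myelin, and microglia are the resident macrophages. The brain burns mainly glucose and makes its own cholesterol, whereas adipose tissue stores and makes fat, brown fat oxidises it for heat, and liver handles both and secretes most plasma proteins.

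Brain libraries held 16115567 to 17293213 counts, IAT 16860982 to 17323705, BAT 12327448 to 12948147 and liver 17034042 to 18199152. Brain had 13824 to 14071 genes at 1 TPM (a level per transcript length) or more, against 10742 to 13062 in the other 9 libraries. The 10 most abundant genes took 3.87% to 4.14% of TPM in brain, 10.6% to 15.0% in the fat tissues and 23.5% to 25.7% in liver. Across genes, log2 CPM (counts relative to library size, scaled here by TMM factors) correlated at 0.986 to 0.992 between brain libraries. Brain and IAT correlated at 0.477 to 0.502, brain and BAT at 0.506 to 0.525, and brain and liver at 0.335 to 0.344, while the other tissues correlated at 0.640 to 0.933 among themselves. Skeletal muscle transcripts were high in IAT replicates 1 and 2 and in BAT replicate 1, where Acta1, the muscle actin, reached 170.3, 731 and 469 CPM, against at most 5.16 CPM in the other 9 libraries. Without those 3 libraries, 4415 genes were brain-high and 3443 brain-low. Prxl2a itself lay at 146 to 212 TPM in wild-type brain and at 9.36 to 11.4 TPM in brain of the knockout. Wild-type IAT had 350 to 554 TPM, BAT 494 to 525 TPM and liver 75.3 to 91.8 TPM. Prxl2a was brain-low under TMM, but not with library size as the only scaling or on TPM, where liver was lower.

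The 3 brain libraries differed in their region markers. Without brain replicate 3, 4450 genes were brain-high and 3499 brain-low. All 14 tested striatum markers were lowest in brain replicate 3, and the gap was wide for several. Drd2, a dopamine receptor of the indirect striatal pathway, stood at 24.97, 24.95 and 1.76 CPM in brain replicates 1 to 3. Adora2a, the adenosine receptor of the same neurons, stood at 26.5, 30.6 and 0.769 CPM, and Penk, the enkephalin precursor, at 198, 144 and 27.2 CPM. In each of these, replicate 3 was far below replicates 1 and 2.

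Choroid plexus markers ran the other way, with all 11 highest in brain replicate 3. Ttr, the thyroid hormone carrier made by that epithelium, reached 16.4, 42.9 and 353 CPM in replicates 1 to 3, and Kl, the klotho gene, 2.12, 2.12 and 17.96 CPM. Cortex and hippocampus markers were less uniform: of 15, 8 were highest in replicate 3, 7 in replicate 2 and 0 in replicate 1, and 3 were lowest in replicate 3. Among the 8 were Fibcd1 at 12.6, 6.44 and 50.9 CPM and Prox1, a dentate gyrus factor, at 10.8, 12.9 and 31.3 CPM. Olfactory bulb markers were highest in brain replicate 1 for all 10 tested. Cdhr1 measured 32.005, 2.16 and 7.42 CPM, Eomes, a factor of mitral and tufted cells, 4.01, 0.132 and 0.0905 CPM, and Doc2g 13.3, 1.85 and 2.04 CPM. Myelin and oligodendrocyte markers were lowest in replicate 3 for 17 of 18, and microglia markers for 14 of 14. The part of tissue sampling in these differences was not tested.

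**Figure D1:**
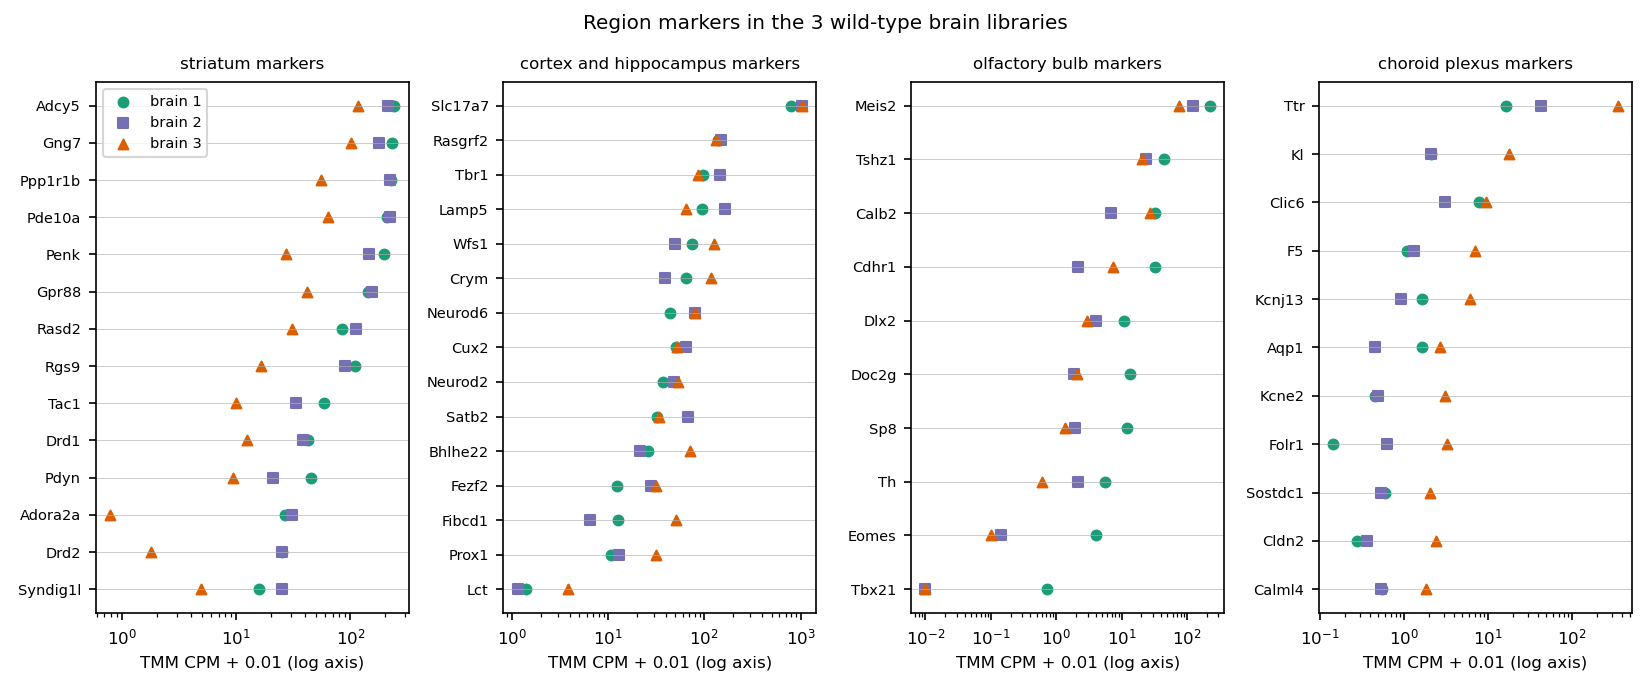
Each row is 1 marker gene and each point 1 wild-type brain library, on a log axis of TMM CPM plus 0.01. Brain replicate 3 is the lowest point for all 14 striatum markers and the highest for all 11 choroid plexus markers, and brain replicate 1 is the highest for all 10 olfactory bulb markers.

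The brain label was checked against region markers. Forebrain genes were abundant: Tbr1, a factor of cortical neurons, measured 97.8, 145 and 86.2 CPM and had no count in any of the 9 other libraries. Several cerebellar markers were close to absent. Gabra6 and Pcp2, which granule and Purkinje cells express strongly, had 0 counts in each brain library, and Cbln3, Fat2 and En2 had at most 13. Of the 8 listed cerebellar genes abundant enough to test, which other regions also express, 5 were brain-high, against 28.6% of all tested genes. A count of 0 allows up to 3 counts, or 0.132 to 0.136 CPM in these libraries, and such limits cover counting error only. Several hypothalamic peptides were likewise scarce, with at most 6 counts per brain library for Avp, Oxt, Hcrt and Pmch, and 0 for Agrp and Sim1. Of the 16 listed thalamus and hypothalamus genes, 9 could be tested and 6 of those were brain-high, against the same 28.6%. Among them, Trh, which encodes thyrotropin-releasing hormone, measured 2.57, 0.750 and 7.60 CPM, the highest value in replicate 3. Genes could pass the count filter through brain alone, so neither the cerebellar nor the thalamus and hypothalamus count shows that the region was sampled. Slc6a3, the dopamine transporter of midbrain neurons, had 15, 0 and 2 counts. Chat and Slc18a3, genes of cholinergic neurons, had 69, 36 and 2 and 41, 30 and 1 counts, the lowest again in replicate 3. The pituitary hormone genes Gh, Prl and Cga had no count in brain and Lhb had 1, 7 and 11. The other members of that list with enough counts to test, Pomc and Tshb, were both brain-high, at 0.451, 0.926 and 0.769 and 0.676, 0.529 and 0.633 CPM, though Pomc was not called without IAT replicate 2.

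Of the 4 tissues, brain had the most tissue-specific calls, a ranking that depends on which tissues were compared. IAT and BAT are both fat, and a gene at a like level in both could be called for neither. By the same rule, 2594 genes were liver-high (16.4%) and 2268 liver-low (14.3%), 1422 BAT-high (8.99%) and 598 BAT-low (3.78%), and 1128 IAT-high (7.13%) and 421 IAT-low (2.66%). At 4-fold or more in all 3 comparisons, 2362 genes were brain-high (14.9%) and 1183 brain-low (7.48%). Taken pair by pair, 6337 genes (40.1%) were higher and 6310 (39.9%) lower in brain than in IAT. Against BAT they were 6396 (40.5%) and 6125 (38.7%), and against liver 6752 (42.7%) and 6238 (39.5%). Brain-high genes supplied 56.7% to 58.1% of all counts in brain, 9.50% to 10.5% in IAT, 7.78% to 8.28% in BAT and 3.996% to 4.41% in liver. These genes were picked for being highest in the same brain libraries, so a larger share there follows from the rule. At the edge of the rule, Ptp4a3 passed with its lowest brain value at 31.63 CPM and its highest other value at 31.57 CPM. Ramac, with 74.96 and 75.16 CPM, fell outside.

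The number of genes called low differed with the scaling. TMM centres the bulk of genes between tissues, and in liver a few transcripts take a large share of the counts. With library size as the only scaling and the same test, 5644 genes were brain-high (35.7%) and 2044 brain-low (12.9%). A further fit on log2(TPM + 1) changed the unit, the test (limma-trend) and the filter on low values together. Of the 14533 genes it tested, 7569 were brain-high (52.1%) and 1052 brain-low (7.24%), and the median gene lay 0.63 higher against IAT, 0.95 against BAT and 1.51 against liver on the log2 scale than under TMM. Of the 4516 brain-high genes, 4148 (91.9%) were also brain-high on TPM, but of the 3746 brain-low genes only 1050 (28.0%) were also brain-low there, and 170 genes were called in opposite directions. The count on TPM is given beside most lists that it changes, and stands against those shares of 52.1% and 7.24%. In the same 4 tissues of knockout mice, separate libraries, 3792 of the brain-high genes (84.0%) and 3041 of the brain-low genes (81.2%) were called again and 0 in the opposite direction.

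**Figure D2:**
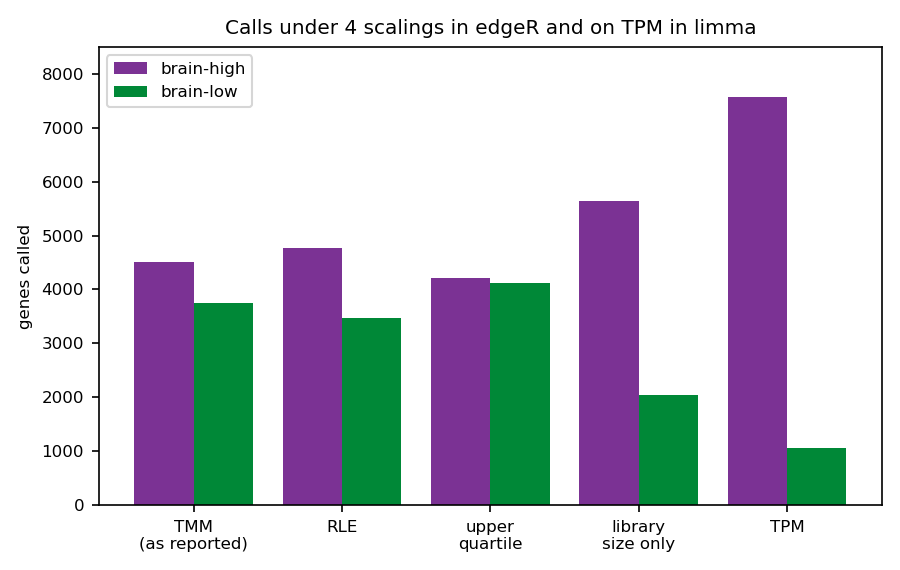
Bars give the number of genes called brain-high and brain-low in the same 12 wild-type libraries, under 4 scalings of the counts tested in edgeR and, in the last pair of bars, on log2(TPM + 1) tested in limma-trend over its own 14533 genes. Brain-high calls run from 4213 with upper quartile factors to 7569 on TPM, and brain-low calls from 4120 down to 1052.

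The most abundant brain-high genes with a wide gap were mainly neuronal. Ranked by TPM among genes at least 16-fold above every other library, they were Snap25, Cpe, Ptgds, Ndrg4, Rtn1, Stmn1, Nrgn, Gpm6a, Syp, Pcp4, Camk2a and Uchl1. Snap25 (gene 20614, GRCm38.p6 chromosome 2, 136713439 to 136782428), a membrane-fusion protein of the presynaptic terminal, measured 1791, 2397 and 1659 CPM in brain replicates 1 to 3. No other library had more than 2 Snap25 counts. Camk2a, the calcium-dependent kinase of excitatory synapses, measured 1953, 2205 and 2127 CPM in brain and 0.0891 to 7.01 CPM elsewhere. Cpe, a carboxypeptidase that trims peptide hormones, was present in every tissue, at 1904, 1783 and 2141 CPM in brain, 20.7 to 36.2 CPM in IAT, 25.3 to 27.2 CPM in BAT and 4.19 to 4.75 CPM in liver. Its log2 difference was 6.16 (SE 0.21) from IAT, 6.20 (SE 0.21) from BAT and 8.76 (SE 0.24) from liver (adjusted p = 9.06e-10). Per length, Snap25 stood at 3322 ± 594 TPM, Cpe at 3228 ± 346 TPM and Ptgds, a prostaglandin synthase of meninges and oligodendrocytes, at 2230.2 ± 865 TPM in brain (SD, n = 3). By the rule that picked them, brain libraries overlapped none of the others for any of the 12.

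Synaptic genes were high in brain as a group. All 20 pan-neuronal genes and all 22 synaptic vesicle genes were brain-high, against 28.6% of all tested genes. Their median log2 difference from the mean of the other tissues was 10.25 and 7.53, or 9.51 and 7.53 with undetected genes set at the 3-count limit, while the median of all tested genes was -0.02. Syp, the vesicle protein synaptophysin, measured 912, 1013 and 1115 CPM in brain, 23.3 to 24.99 CPM in BAT, 5.47 to 6.06 CPM in IAT and 0.792 to 1.34 CPM in liver. It was the BAT libraries that came nearest, with a log2 difference of 5.40 (SE 0.14) (adjusted p = 2.59e-10 over the 3 contrasts). On the receiving side, 17 of 18 postsynaptic density genes were brain-high. Homer2, a scaffold, was the exception at 77.9, 54.5 and 72.8 CPM in brain and 121, 126 and 114 CPM in liver, although it was brain-high on TPM.

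All 24 glutamate receptors and vesicular glutamate transporters were brain-high. Gria2, the AMPA receptor subunit that limits calcium entry, measured 851, 732 and 793 CPM, with at most 3 counts in any other library. Slc17a7, the vesicular glutamate transporter of cortex and hippocampus, measured 800.3, 1037 and 1021 CPM, and its counterpart Slc17a6, prominent in thalamus and brainstem, 19.5, 11.7 and 28.01 CPM. Per length, Slc17a7 stood at 1116 ± 137 TPM and Slc17a6 at 17.2 ± 7.32 TPM (SD, n = 3), with no overlap between their libraries. Grin1, the obligatory NMDA receptor subunit, measured 367, 431 and 369 CPM in brain and 0 to 0.283 CPM elsewhere.

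Of 23 GABA and glycine signalling genes, 22 passed the filter on low counts and 20 of those were brain-high. Gad1, which makes GABA, measured 446, 325 and 289.9 CPM, with at most 2 counts in any other library. Gad2, the second such enzyme, measured 266, 159.5 and 141 CPM and Slc32a1, which loads GABA into vesicles, 70.996, 55.8 and 41.6 CPM, both with no count elsewhere. Their lowest brain value was at least 471-fold and at least 139-fold higher than the 3-count limit of any other library. The genes not called were Abat and Gphn. Abat, which breaks down GABA, measured 299.1, 248 and 221 CPM in brain but 594, 366 and 414 CPM in liver, a log2 difference of -0.84 (SE 0.18). Gphn, the anchor of inhibitory receptors, measured 70.9, 67.2 and 68.5 CPM in brain and 119.9, 92.9 and 99.01 CPM in liver. On TPM both were brain-high.

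Modulatory systems were more uneven. Of 22 monoamine and acetylcholine genes, 18 passed the filter. Of those, 11 were brain-high (61.1%, against 28.6% of all tested genes) and 2 brain-low (11.1%, against 23.7%). Slc6a3, Slc18a3, Dbh and Chat did not pass, and 9 of the 18 had no count in at least 1 tissue. The count is therefore not one over all members. Chrm1, a muscarinic receptor, measured 142, 159 and 173 CPM in brain and 0 to 1.66 CPM elsewhere, and Htr2c, a serotonin receptor, measured 82.5, 17.2 and 59.5 CPM with no count elsewhere. Replicate 2 was the lowest for Htr2c. Maob, a monoamine oxidase, was brain-low, at 25.2, 21.1 and 21.9 CPM in brain and 72.4 to 561 CPM elsewhere (adjusted p = 8.43e-08). Slc6a4, the serotonin transporter, was at 2 counts or fewer in brain and at 1.99, 4.09 and 4.997 CPM in IAT.

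The list of neuropeptide and granin genes has 28 members, of which 22 passed the filter on low counts. Of those 22, 20 were brain-high, and 22 on TPM, where 52.1% of all genes were. The other 6 had at most 7 counts in any brain library, and 19 of the 22 had no count in at least 1 other tissue, so the count is not one over all members. Sst, which encodes somatostatin, measured 96.8, 107 and 117 CPM and Npy, which encodes neuropeptide Y, 34.8, 49.996 and 20.1 CPM, both with no count elsewhere. Cck, which encodes cholecystokinin, measured 107, 158 and 107 CPM in brain and 0 to 0.816 CPM elsewhere. Per length these peptides were among the high brain transcripts, Sst at 1163 ± 79.2 TPM, Cck at 1022 ± 220.4 TPM and Npy at 437 ± 182 TPM (SD, n = 3). Penk passed the test (adjusted p = 0.0259) but overlapped IAT, which had 32.1, 34.5 and 42.6 CPM against 27.2 CPM in brain replicate 3. Without brain replicate 3 it was brain-high.

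Among 28 voltage-gated channel genes, 27 were brain-high. Scn2a, a sodium channel of axons, measured 248, 275 and 283 CPM in brain and 0 to 2.25 CPM elsewhere. Scn4b passed the test (adjusted p = 0.00411) but overlapped, at 148, 246 and 10.8 CPM in brain against 12.3 CPM in BAT replicate 1. That BAT library is among those with muscle transcripts, and the gene was brain-high without brain replicate 3.

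**Figure D3:**
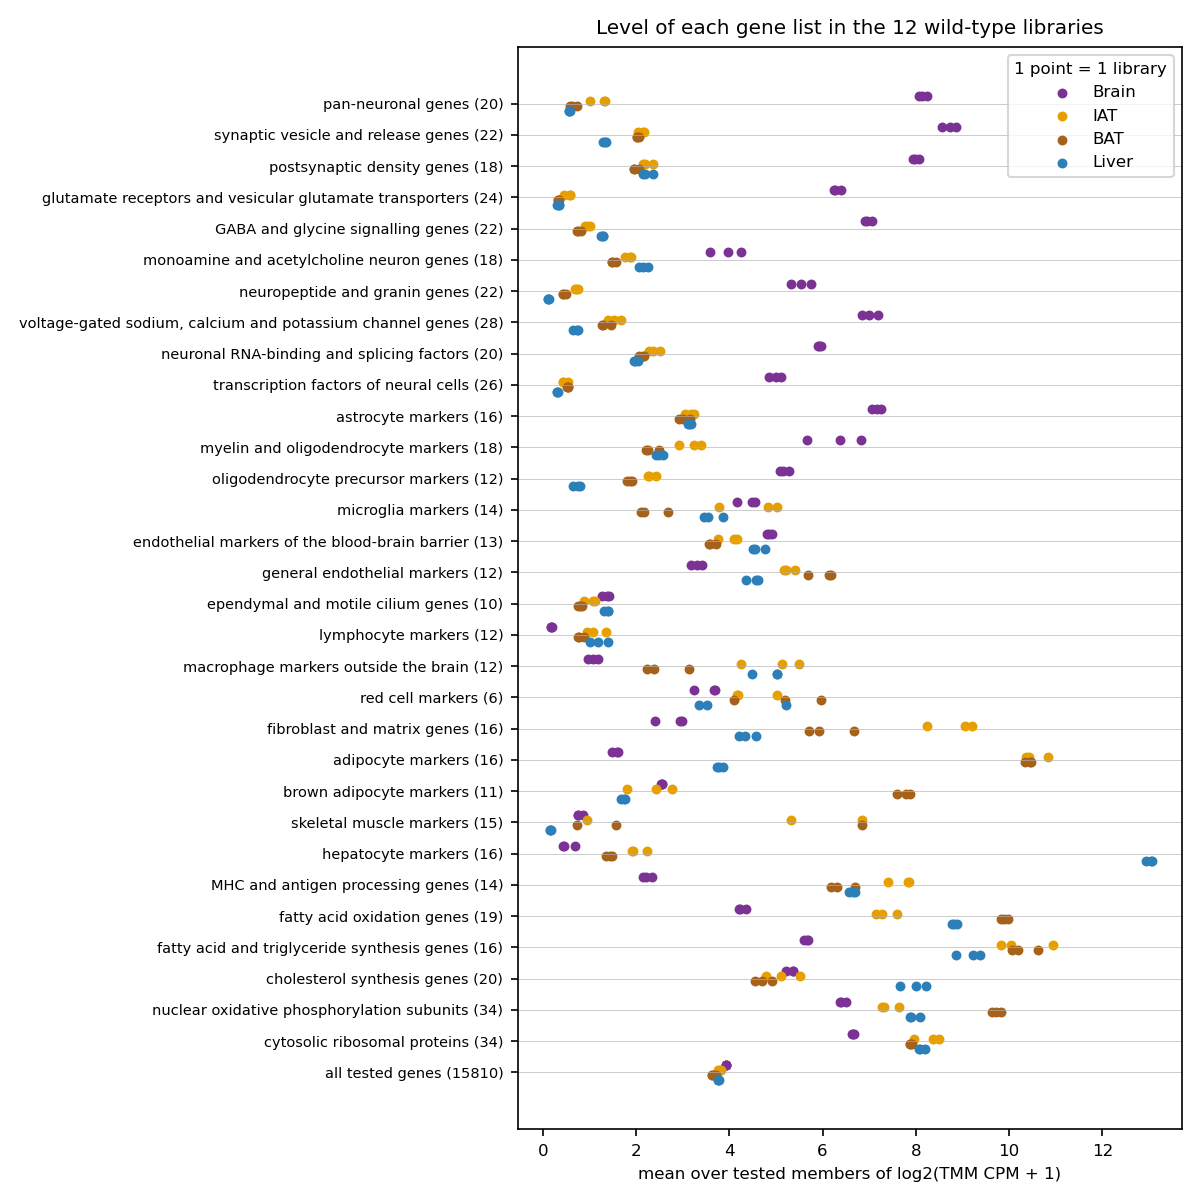
Each point is 1 wild-type library and gives the mean of log2(TMM CPM + 1) over the tested members of a list, whose number stands in brackets. On this scale brain points lie to the right of all others for the neuronal, astrocyte and oligodendrocyte lists. They lie to the left for general endothelial, lymphocyte, macrophage, fibroblast, MHC and fatty acid lists, while the points for all tested genes lie close together.

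Regulators of neuronal splicing and transcription included both brain-high and brain-low members. Of 20 RNA-binding and splicing genes, 16 were brain-high and 3 brain-low (16 and 1 on TPM). Rbfox3, the neuronal nuclear antigen, measured 161, 204 and 139.6 CPM in brain and 0 to 0.802 CPM elsewhere. Ptbp2, the neural polypyrimidine tract-binding protein, measured 101, 91.5 and 110.1 CPM in brain and 15.2 to 27.9 CPM elsewhere, and its non-neural relative Ptbp1 28.4, 24.95 and 25.6 and 89.5 to 154 CPM. Within the pair, Ptbp2 took 77.4% ± 1.81 of the summed TPM in brain (SD, n = 3) and 9.46% to 21.9% in the other 9 libraries, a share that does not depend on scaling. The other brain-low members were the epithelial splicing factors Esrp1 and Esrp2. Esrp2 had at most 2 counts in brain against 83.4 to 87.5 CPM in liver. Of 26 transcription factors of neural cells, 25 were brain-high. Mef2c, an activity-dependent factor, measured 406, 588 and 444 CPM in brain, 19.1, 34.4 and 25.5 CPM in IAT, 18.3, 22.1 and 17.4 CPM in BAT and 5.35, 5.53 and 5.99 CPM in liver. Neurod6, a factor of excitatory cortical neurons, measured 43.8, 80.8 and 79.9 CPM with no count elsewhere. Zic1 was the member not called, at 50.8, 9.39 and 9.91 CPM in brain and 16.3, 15.7 and 18.5 CPM in BAT, and only brain replicate 1 lay above BAT.

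Rest encodes the repressor that silences neuronal genes in other tissues by binding a DNA element called RE1. Rest was brain-low, at 4.55, 3.04 and 3.94 CPM in brain, 17.99, 17.6 and 18.9 CPM in IAT, 19.3, 16.5 and 16.4 CPM in BAT and 25.1, 21.4 and 21.1 CPM in liver. It fell by 2.24 (SE 0.15), 2.18 (SE 0.15) and 2.55 (SE 0.15) on the log2 scale (adjusted p = 1.78e-07). The element was looked for in RefSeq promoter windows of 300 bases, from 250 before the start to 50 after it, which exist for 12268 of the tested genes. The letters AGCACC and GGACAG with any 2 bases between them, read on both strands, were found in 12 of these windows (0.0978%) and in 0.0517% of all 32851 windows of that table. All 12 belong to brain-high genes, which make up 28.1% of the genes with a window. The letters were chosen after several lengths had been tried on these data, so the count is a description with no test. A shorter left part, TTCAGCACC, was found for 62 genes, of which 32 were brain-high (51.6%) and 9 brain-low. A right part, GGACAG followed directly by CGCC, was found for 36 genes, of which 12 were brain-high (33.3%) and 5 brain-low. A match in a window is not a measured binding site.

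The matches are shown because all those in tested genes belong to brain-high genes. Each line gives the gene, the position of the 14-base match in GRCm38.p6, the strand of the gene, and 30 bases written 5′ to 3′ on the strand that carries the motif, with the match in capitals.
Scamp5, chr9:57468198-57468211, gene on the minus strand: gaatatttAGCACCACGGACAGctcctgca
Gria2, chr3:80802992-80803005, gene on the minus strand: tcgattttAGCACCGCGGACAGcgctttgg
Fam163b, chr2:27142565-27142578, gene on the minus strand: ccagcgtcAGCACCAGGGACAGttcctcgc
Gad2, chr2:22622164-22622177, gene on the plus strand: gctgtggtAGCACCCTGGACAGcgcgttcc
Hrh3, chr2:180104577-180104590, gene on the minus strand: gcgcgggcAGCACCACGGACAGcgccgcgt
Sptbn4, chr7:27396283-27396296, gene on the minus strand: gcggctccAGCACCACGGACAGttcccggt
Ogdhl, chr14:32321917-32321930, gene on the plus strand: gggaggtcAGCACCTCGGACAGcgagggcc
Osbp2, chr11:3774794-3774807, gene on the minus strand: accgcttcAGCACCGCGGACAGcggccagc
Robo2, chr16:75447356-75447369, gene on the minus strand: ttacccttAGCACCACGGACAGagcactaa
Fbll1, chr11:35799059-35799072, gene on the minus strand: gtccagtcAGCACCAGGGACAGctacctca
Lca5, chr9:83441291-83441304, gene on the minus strand: cggagcccAGCACCCAGGACAGaccgaaag
The twelfth match, in Ttc9b, lies after the start. The genes serve synaptic vesicles (Scamp5), fast excitation (Gria2), GABA synthesis (Gad2), histamine signalling (Hrh3), the axon initial segment (Sptbn4) and axon guidance (Robo2). Brain levels ran from 14.7, 9.21 and 8.46 CPM for Lca5 to 851, 732 and 793 CPM for Gria2. In other tissues Gad2, Ttc9b and Fbll1 had no count, whereas Scamp5 kept 5.72 to 37.2 CPM, against 289, 316 and 332 CPM in brain. Hrh3 measured 86.01, 85.05 and 64.4 CPM in brain with at most 1 count elsewhere. A further 5 matches were located in windows of Gm31317, Gm32659, Lhx3 and Pip, 4 genes that were not tested. Some of the 5 share the window of Gm32659, and 17 windows had a match in all. The located matches in untested genes may therefore not be complete.

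Astrocyte genes were brain-high for 12 of 16, against 28.6% of all tested genes, and for 14 on TPM, where 52.1% of all genes were. Slc1a2, the main glutamate transporter of astrocytes, measured 2256, 2335 and 2085 CPM in brain, at most 3 counts in fat and 460.3, 318 and 364 CPM in liver (log2 difference from liver 2.55 (SE 0.17), adjusted p = 6.64e-07). Mlc1, a membrane protein of astrocyte endfeet, measured 133, 104 and 111 CPM with no count elsewhere, and Gfap, the astrocyte filament, 78.8, 57.1 and 134 CPM with 0 to 0.535 CPM elsewhere. Some textbook astrocyte genes were not particular to brain under TMM. Aldh1l1, a folate enzyme, was brain-low at 39.8, 44.9 and 45.02 CPM against 3489.9, 2179.6 and 2117 CPM in liver. S100b was not called, at 68.2, 72.97 and 54.8 CPM in brain and 82.2, 88.2 and 65.4 CPM in BAT. On TPM Aldh1l1 was not called and S100b was brain-high. Glul, the glutamine synthetase, was brain-low as reported, a call that was lost with RLE or upper quartile factors, with library size only, on TPM, in the knockout libraries and without brain replicate 3, among others. Brain had 1525, 1443 and 1244 CPM and liver 2125, 1886 and 1964 CPM, but per length brain had 1736 ± 189 TPM and liver 646 ± 21.8 TPM (SD, n = 3).

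Of 18 myelin and oligodendrocyte genes, 14 were brain-high, and 16 on TPM, where 52.1% of all genes were. Mbp, myelin basic protein, measured 1714, 2352 and 875 CPM in brain and 77.1, 183 and 120.2 CPM in IAT. Peripheral nerve also makes this protein. Mobp, restricted to central myelin, measured 149.6, 201 and 82.2 CPM with no count in any other library. Brain replicate 3 was the lowest and replicate 2 the highest for both genes. Among precursor markers, 9 of 12 were brain-high, with Olig1 at 54.1, 59.8 and 42.4 CPM and Sox10 at 25.3, 25.3 and 20.99 CPM against 12.5, 14.9 and 10.2 CPM in IAT.

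Few microglia markers were particular to brain. Only 4 of 14 markers were brain-high (5 on TPM, where 52.1% of all genes were), a share close to the 28.6% of all tested genes. Cx3cr1, the fractalkine receptor, measured 34.8, 37.5 and 27.1 CPM in brain and 0.547 to 2.76 CPM elsewhere (adjusted p = 4.84e-07). P2ry12, a purine receptor, measured 34.4, 35.9 and 26.6 and 0.618 to 12.5 CPM, and Siglech, a surface lectin, 13.3, 13.01 and 9.68 and 0.154 to 3.77 CPM. The other 10 were not called. Among them, C1qa, a complement subunit, measured 27.6, 24.9 and 20.04 CPM in brain and 121, 415 and 596 CPM in IAT. In bulk tissue, fewer cells of a type and less RNA per cell cannot be told apart.

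Of 12 general endothelial markers, 9 were brain-low, though only 4 were with library size scaling and 2 on TPM. Cdh5, the endothelial cadherin, measured 7.66, 8.24 and 7.33 CPM in brain and 23.5 to 187 CPM elsewhere (adjusted p = 1.25e-05). Of 13 barrier markers, 3 were brain-high (23.1%, against 28.6% of all tested genes) and 2 brain-low. On TPM 4 were brain-high and 0 brain-low, against 52.1% and 7.24% of all genes. Among the brain-high, Slco1c1, a thyroxine transporter of the blood-brain barrier, measured 45.4, 44.6 and 41.04 CPM in brain with at most 2 counts elsewhere. Slc7a5, which carries large neutral amino acids, measured 46.3, 57.2 and 55.6 CPM and 0.776 to 10.98 CPM elsewhere. Other barrier markers were as high or higher elsewhere: Cldn5, a tight junction protein, measured 12.2, 15.03 and 11.4 CPM in brain and 19.5, 29.6 and 58.5 CPM in BAT, and Mfsd2a, a lipid transporter, 18.3, 18.6 and 23.9 CPM and 445, 276 and 439 CPM in liver.

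Within several enzyme families the make-up differed between brain and the other tissues. Shares within a gene family, taken from TPM, do not depend on scaling between libraries. Glucose transporter messages in brain were Slc2a1 (48.98% ± 5.58) and Slc2a3 (50.6% ± 5.46; SD, n = 3), the barrier and the neuronal transporter, against 1.37% to 7.99% and 0.0493% to 5.44% in the other 9 libraries. The family total was 248 ± 16.4 TPM in brain and 240.3 ± 25.6 TPM in liver, where Slc2a2 took 95.5% ± 0.386. In glycolysis, the neuronal enolase Eno2 took 41.3% ± 2.66 in brain and 0.00620% to 0.512% elsewhere, while the ubiquitous Eno1 led in brain too, at 57.96% ± 2.65. The astrocytic aldolase Aldoc took 22.2% ± 1.42 and 0.0264% to 0.351%, while Aldoa led in brain at 77.7% ± 1.41. Lactate dehydrogenase leaned to Ldhb, the heart form, at 63.7% ± 5.37 in brain against 0.597% to 38.6% elsewhere. Glycogen phosphorylase was the brain form Pygb at 79.97% ± 0.433 against 0.669% to 19.8%. For the shares of Slc2a1, Slc2a3, Eno2, Aldoc, Ldhb and Pygb, the brain libraries overlapped none of the others. As genes, Ldhb and Pygb were not called brain-high under TMM, though Pygb was on TPM.

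The carnitine palmitoyltransferase family had a different leading message in brain, BAT and liver. Cpt1c, a neuronal form, took 82.4% ± 2.56 of the family in brain, where Cpt1a took 16.3% ± 2.67. Cpt1b, the muscle form, took 98.7% ± 0.204 in BAT and Cpt1a 98.9% ± 0.123 in liver. These are shares of messages, and whether Cpt1c admits fatty acids to mitochondria in brain was not tested. Kinesin heavy chains were Kif5a at 71.05% ± 1.79 against 3.69% to 8.41%. Creatine kinase totalled 1974 ± 313 TPM in brain, of which Ckb, the brain form, took 84.3% ± 3.12, and 4.57 ± 1.74 TPM in liver. In IAT and BAT that family varied with the muscle form Ckm, which had no count in brain, and ran from 0 to 396 CPM in IAT.

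**Figure D4:**
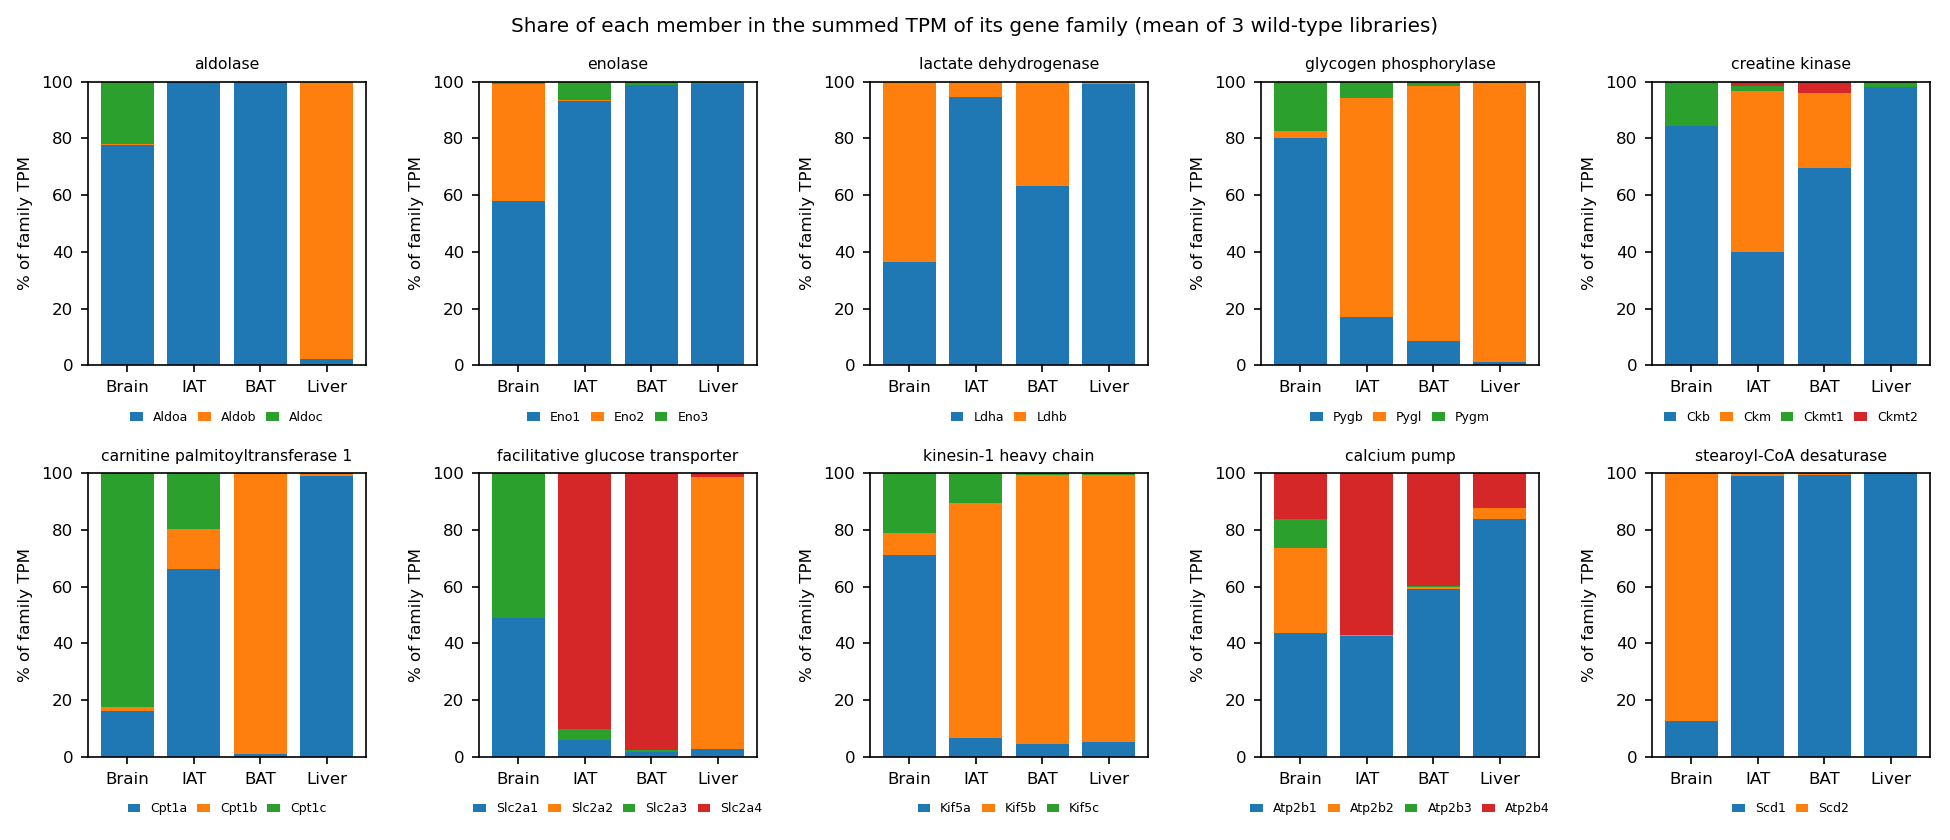
Each bar is a tissue and each colour a member of a gene family, as a percentage of the summed TPM of the family, averaged over 3 wild-type libraries. In 6 of the 10 panels the leading member in brain leads in no other tissue, such as Cpt1c at 82.4% and Scd2 at 87.2%.

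Fat-handling genes were low in brain. Of 19 fatty acid oxidation genes, 18 were brain-low, against 23.7% of all tested genes, and 18 were on TPM as well. Their median log2 difference was -3.29 from IAT, -6.52 from BAT and -4.50 from liver. Acadm, a mitochondrial acyl-CoA dehydrogenase, measured 28.7, 25.2 and 23.4 CPM in brain, 373, 244 and 242 CPM in IAT, 3355, 3192 and 2706 CPM in BAT and 487, 472 and 541 CPM in liver (adjusted p = 2.73e-08). BAT was the highest, and brain was the lowest with no overlap, as the brain-low rule requires. Cpt1a was the member not called, with 24.9, 22.6 and 21.4 CPM in brain and 17.9, 15.8 and 19.3 CPM in BAT. Of 16 genes of fatty acid and triglyceride synthesis, 15 were brain-low (11 on TPM) and 1, Scd2, was brain-high. Fasn, the fatty acid synthase, measured 202, 221 and 206 CPM in brain and 1356 to 25819 CPM elsewhere. Of the 2 stearoyl-CoA desaturases, Scd1 measured 164, 193 and 127 CPM in brain and 13588 to 60251 CPM elsewhere, while Scd2 measured 1318, 1309 and 1096 CPM in brain and 16.7 to 895 CPM elsewhere (adjusted p = 0.0405). Scd2 made up 87.2% ± 1.42 of their summed TPM in brain and 0.0875% to 1.29% in the other libraries. The call of Scd2 was lost with upper quartile factors and when brain replicate 1 or 2, IAT replicate 2 or 3 or liver replicate 1 was left out, while the ranges of its share lay far apart.

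A list of cholesterol genes, nearly all of synthesis, was mostly uncalled. Of 20, 1 was brain-high (5%, against 28.6% of all tested genes) and 4 were brain-low (20%, against 23.7%). On TPM 2 were brain-high and 1 brain-low, against 52.1% and 7.24% of all genes. The brain-high member was Cyp46a1, which is not a synthesis gene but converts brain cholesterol to a form that can leave the tissue. It measured 123.1, 140.2 and 139 CPM in brain and 0.232 to 3.17 CPM elsewhere (adjusted p = 2.94e-10).

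Oxidative phosphorylation and ribosomal protein genes were brain-low under TMM, in 34 of 34 and 33 of 34, but in only 18 and 11 with library size scaling and 3 and 3 on TPM. Ndufa4, a respiratory chain subunit, measured 90.2, 97.6 and 91.7 CPM in brain, 184, 155 and 155 CPM in IAT, 889, 1007 and 863 CPM in BAT and 350.1, 282 and 311 CPM in liver. Per length it stood at 1582 ± 54.4 TPM in brain, 1602 ± 224 TPM in IAT, 6979 ± 628 TPM in BAT and 1431 ± 71.6 TPM in liver (SD, n = 3). BAT was the highest on both scales, whereas the order of brain, IAT and liver changed with the scale.

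The most abundant brain-low genes, ranked by TPM in the tissue where they were highest, were Fabp4, Apoc1, Scd1, Mup22, Car3, Cyp2e1, Apoc3, Dbi, Thrsp, Rbp4, B2m and Ftl1. Most are known as products of adipocytes or hepatocytes, whereas B2m and Ftl1 are made by most cells. Fabp4, the adipocyte fatty acid binding protein, had at most 1 count in a brain library against 6521, 6072 and 6031 CPM in IAT, 8926, 9809.8 and 9628 CPM in BAT and 8.22, 8.91 and 8.69 CPM in liver. Dbi, which binds acyl-CoA, measured 49.2, 38.4 and 50.3 CPM in brain and 579.9 to 1548 CPM elsewhere (adjusted p = 4.45e-09). Ftl1, the ferritin light chain, measured 153, 128 and 129 and 813 to 4614 CPM (adjusted p = 1.97e-08). Mup22 has near-identical copies among which reads may be split, so its values are uncertain.

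Antigen presentation was low in brain throughout. All 14 MHC and antigen processing genes were brain-low, and 13 on TPM, with a median log2 difference of -5.33. B2m, the light chain of class I molecules, measured 57.9, 60.97 and 46.8 CPM in brain, 1791, 1745 and 1919 CPM in IAT, 915, 658 and 856 CPM in BAT and 3053, 2947 and 2718 CPM in liver. It fell by 5.04 (SE 0.18), 3.87 (SE 0.17) and 5.72 (SE 0.18) on the log2 scale (adjusted p = 4.3e-09). H2-D1, a class I heavy chain whose reads may be shared with close relatives, measured 29.03, 29.8 and 19.9 CPM in brain and 632 to 1935 CPM elsewhere. Tap1, the peptide transporter, measured 2.12, 1.85 and 2.81 CPM and 22.9 to 51.9 CPM. Cd74, the class II invariant chain, measured 2.52, 0.970 and 2.17 CPM and 112 to 1328 CPM. C3, the central complement component, measured 0.316, 0.309 and 0.498 CPM in brain and 713 to 14098 CPM elsewhere, and with Cfb was brain-low, while 15 of 17 complement and coagulation genes were not called.

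Markers of several cell types found outside the brain were also brain-low, against 23.7% of all tested genes. Of 12 macrophage markers 7 were brain-low (3 on TPM), of 12 lymphocyte markers 8 (on TPM, 2 of the 5 that could be tested), of 16 fibroblast genes 8 (5 on TPM), and of 16 adipocyte markers 10 (6 on TPM). Lyz2, a macrophage lysozyme, measured 5.14, 3.62 and 2.94 CPM in brain and 43.6 to 1359.9 CPM elsewhere, and Cd2, a surface protein of T cells, had at most 1 count in a brain library and 0.891 to 7.07 CPM elsewhere. The mean log2(CPM + 1) of the lymphocyte list was 0.174 to 0.188 in the brain libraries. Col3a1, a fibrillar collagen, measured 1.76, 0.617 and 2.04 CPM in brain and 52.1 to 3964 CPM elsewhere. Their part in the low MHC values was not tested. Other such lists were close to or under that share: brown adipocyte markers were brain-low for 3 of 11 (27.3%), hepatocyte markers for 4 of 16 (25%) and skeletal muscle markers for 0 of 15. Some of the hepatocyte markers were as low in fat: Alb, albumin, measured 0.316, 0.265 and 0.226 CPM in brain and 0.781, 0 and 0.541 CPM in BAT. Haemoglobin transcripts were present in every tissue after perfusion. Hbb-bs, whose reads may be shared with near-identical copies, measured 18.98, 11.7 and 15.9 CPM in brain and 29.6 to 433 CPM elsewhere, and was brain-low under TMM but not with library size scaling or on TPM.

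Brain-high genes were long. Their median genomic span in RefSeq (GRCm38.p6) was 40457 bases (quartiles 15191 and 105627), against 16215 (7232 and 34167) for brain-low genes and 22792 for genes called neither way. More than 100 kb was spanned by 26.3% of brain-high genes, 6.39% of brain-low genes and 14.6% of all tested genes. On TPM the medians were 31345 bases for brain-high and 17558 for brain-low genes, so the order held on that scale. CpG dinucleotides in the 300-base promoter window had a median of 20 for brain-high, 18.5 for brain-low and 19 for all tested genes. Among genes at least 4-fold apart they had a median of 17 for brain-high and 10.5 for brain-low genes. The letters TATAAA, on either strand, occurred in 10.6% of the windows of 4-fold brain-high genes, 14.3% of those of 4-fold brain-low genes and 9.85% of all. The X chromosome held 4.74% of brain-high, 2.62% of brain-low and 3.47% of all tested genes.

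**Figure D5:**
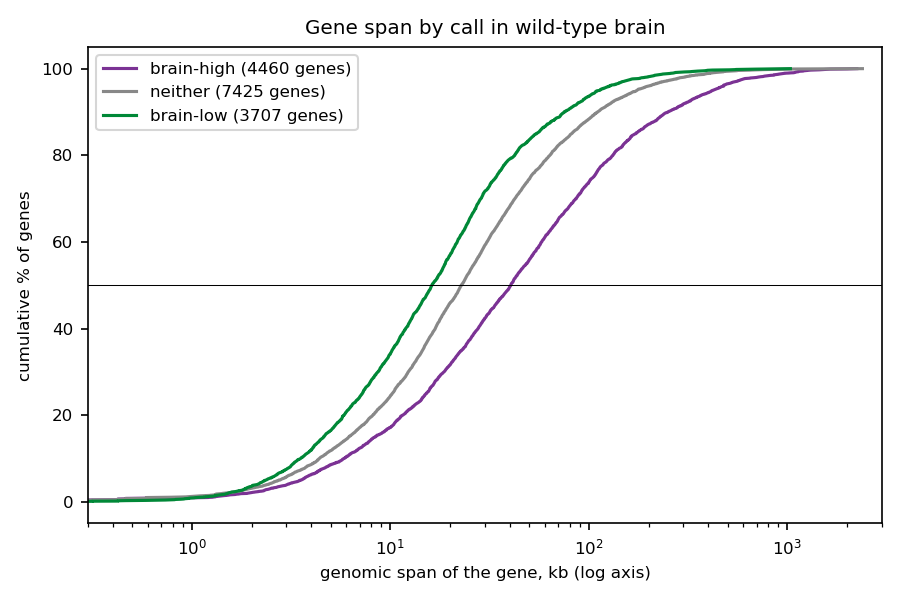
Curves give the cumulative percentage of genes against genomic span in kb on a log axis, for 4460 brain-high, 3707 brain-low and 7425 other genes with a RefSeq span. The brain-high curve lies to the right of the others over most of its range, with medians of 40457 bases for brain-high and 16215 for brain-low genes.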

How the data were processed

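RNA-seq was made from 4 tissues with 3 libraries per tissue and genotype. Per the file headers, the authors deposited expected counts per gene and length-scaled TPM per gene for each library. Per the submitters' processing notes the tools were Bowtie2 2.3.4.3, RSEM 1.3.1 and DESeq2 1.4.5, with GRCm38.p6 as the build and no roles given, and the library kit's strand setting is not given in the sources used here. Another 48 columns of per-sample values were not used.

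Expected counts were rounded and tested in edgeR 4.0.16 (R 4.3.3) on the 12 wild-type libraries, with TMM factors, filterByExpr (minimum count 10) and glmQLFTest. For each gene the largest of the 3 two-sided p-values against IAT, BAT and liver was kept where the 3 differences had 1 sign, and otherwise p was set to 1. These were adjusted by Benjamini-Hochberg over all 15810 tested genes, and this is the adjusted p printed throughout, with 0.05 as the threshold. Standard errors were derived from the F statistic. CPM values are scaled by TMM and carry counting error besides the spread between libraries. TPM was tested with limma 3.58.1 on log2(TPM + 1) in genes with a mean of at least 1 TPM, and DESeq2 1.42.0 was run as an alternative. Counts were simulated for 15810 genes with the same mean in all 4 tissues, apart from genes changed in brain. On these the rule recovered 42 of 100 genes changed by 2-fold and 81 of 100 changed by 4-fold, with 1 false call. Genes that differ from only some of the other tissues were not simulated, so the simulation gives no error rate for the calls in the data. Brain libraries differed from each other by more than sampling noise (chi-square per degree of freedom 15.3 to 31.0), so each counted as a replicate.

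Named genes are those with the highest TPM among calls with a gap of 16-fold (brain-high) or 4-fold (brain-low), the widest gaps, the leading called and the uncalled members of each list, and genes with the RE1 letters; some of these are not reported here. The members, lists and tests were chosen with earlier results of these data known. The desaturase and Ptbp pairs, Rest and the RE1 search were added after values had been seen. Of the genes in the table, 18958 matched RefSeq by identifier, and spans, promoter windows and sequences are RefSeq's on GRCm38.p6.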

Additional observations from a re-analysis of the deposited data

How the results depend on the processing

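With library size only, 2044 genes were brain-low, and 10277 were higher and 3354 lower than in liver. On log2(TPM + 1), 7569 genes were brain-high and 1052 brain-low, 10947 were higher than in liver, and 3806, 2893 and 2159 were lower than in IAT, BAT and liver. On log2(TPM + 0.1) these were 7492, 1130, 11024, 3784, 2977 and 2214. Glul changed sign, to 0.16 on both TPM scales, from a brain-low call. At 2-fold in each contrast 2344 genes were brain-low. At 4-fold, 2362 were brain-high and 1183 brain-low, with 2964, 3441 and 3925 higher and 2859, 2680 and 2822 lower than in IAT, BAT and liver, fewer by construction. RLE or upper quartile factors, other filters, DESeq2, limma-voom, all 24 libraries in 1 fit, knockout libraries and dropping the overlap rule gave 4096 to 4768 brain-high and 3277 to 4120 brain-low genes. Leaving out 1 library gave 4435 to 4611 and 3465 to 3758. With the replicate number as a block, 4479 genes were brain-high and 3697 brain-low. Deviations of same-numbered libraries correlated at -0.0454 to 0.0514, and the numbers were not treated as pairs. With 3 libraries per tissue, such correlations cannot show whether the 4 tissues came from the same mice, which is not stated. Of 3543 combinations of 127 named genes and alternatives, 3437 kept direction and call, 80 lost and 24 gained a call, and 2 reversed.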
